A study of Mus musculus with 4 samples.

Results

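Within one library of mouse aortic arch, cells with many transcripts of a reporter named RFP were compared with cells that had few. The library came from cKO mice aged 16 to 20 weeks, whose genotype is CNC-SMC-Cre;Smad4flox/flox;R26-tdT. Single-cell 5′ libraries count unique molecular identifiers (UMIs), 1 for each captured transcript. Members were chosen on measured values. They had 500 or more genes, under 10% mitochondrial UMIs, 3000 or more UMIs, and 0 UMIs of the leukocyte gene Ptprc and the endothelial gene Pecam1. RFP-high cells had 16 or more RFP UMIs and RFP-low cells under 8. Of the 8634 barcodes of this library 4058 passed the filters, 2113 had neither Ptprc nor Pecam1, and 1707 fell into 3 gates set by marker UMIs. The smooth muscle gate (SMC gate in the plots) needed 5 or more Myh11 and under 10 Spp1 UMIs and held 325 RFP-high and 573 RFP-low cells. The Spp1 gate needed 10 or more Spp1 UMIs and held 122 RFP-high and 136 RFP-low cells. The Pdgfra gate needed 1 or more Pdgfra, under 5 Myh11 and under 10 Spp1 UMIs and held 167 RFP-high and 238 RFP-low cells. These 1561 cells are the members, out of 31081 barcodes in the 4 libraries of the series, and 96, 33 and 17 cells of the gates lay between the RFP boundaries.

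The series sets the cKO genotype beside control mice of the same age, CNC-SMC-Cre;R26-tdT, in the aortic arch and in the descending aorta, with 1 library in each of the 4 groups. Mice of both genotypes therefore carry the Cre driver and the R26-tdT reporter, and the floxed Smad4 alleles are what the cKO adds. The sources used here do not give what drives the Cre, the mouse strain or the number of animals in a library. RFP is counted in the cKO arch file alone, where it is no Ensembl gene, and it was taken for the R26-tdT reporter as an assumption. Every arm had Xist, at 491 to 788 counts per 1000000 UMIs (CPM), and none had a UMI of the Y-linked genes Ddx3y, Eif2s3y, Uty and Kdm5d. The cKO arch library shared 66 to 99 barcodes with each of the others. Median depth was 9979 UMIs in RFP-high and 12052 in RFP-low cells of the smooth muscle gate, 14091 and 10634.5 in the Spp1 gate, and 8870 and 8189 in the Pdgfra gate. All members come from 1 library, so there is no replicate and no test. Differences are described by size, and intervals cover counting error only.

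Smad4 is the shared partner of the receptor-activated SMAD proteins. Ligands of the BMP and TGF-beta families bind receptor kinases, which phosphorylate SMAD1, SMAD5 and SMAD9 for BMP or SMAD2 and SMAD3 for TGF-beta, and these enter the nucleus with SMAD4. BMP signalling is known to induce Id genes, whose proteins hold helix-loop-helix factors off DNA, and the feedback inhibitors Smad6 and Smad7. In the aortic wall TGF-beta signalling is known for its part in matrix production, and heritable thoracic aortic disease can arise from variants in genes of this pathway.

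RFP lay in a low and a high range in each gate. Its median was 63 UMIs in RFP-high and 3 in RFP-low cells of the smooth muscle gate, 123 and 2 in the Spp1 gate, and 67 and 1 in the Pdgfra gate. Cells were fewer near the upper boundary than near the lower one: in that order of gates, 22, 4 and 6 cells had 16 to 19 RFP UMIs and 19, 11 and 5 had 12 to 15, while 90, 20 and 8 cells had 6 or 7 and 77, 22 and 12 had 8 to 11. Free RNA can give single RFP UMIs in cells that do not express it, and leukocytes give a background level. Of 1529 Ptprc-positive cells of the library, 3.20% had 16 or more RFP UMIs (Clopper-Pearson 95% interval 2.38 to 4.21%), with a median of 2 RFP UMIs at a median depth of 7038. Of RFP-high members 52.9% were in the smooth muscle gate (48.9 to 56.9%), 19.9% in the Spp1 gate (16.8 to 23.2%) and 27.2% in the Pdgfra gate. The RFP-low shares were 60.5% (57.3 to 63.6%), 14.4% (12.2 to 16.8%) and 25.1%.

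**Figure D1:**
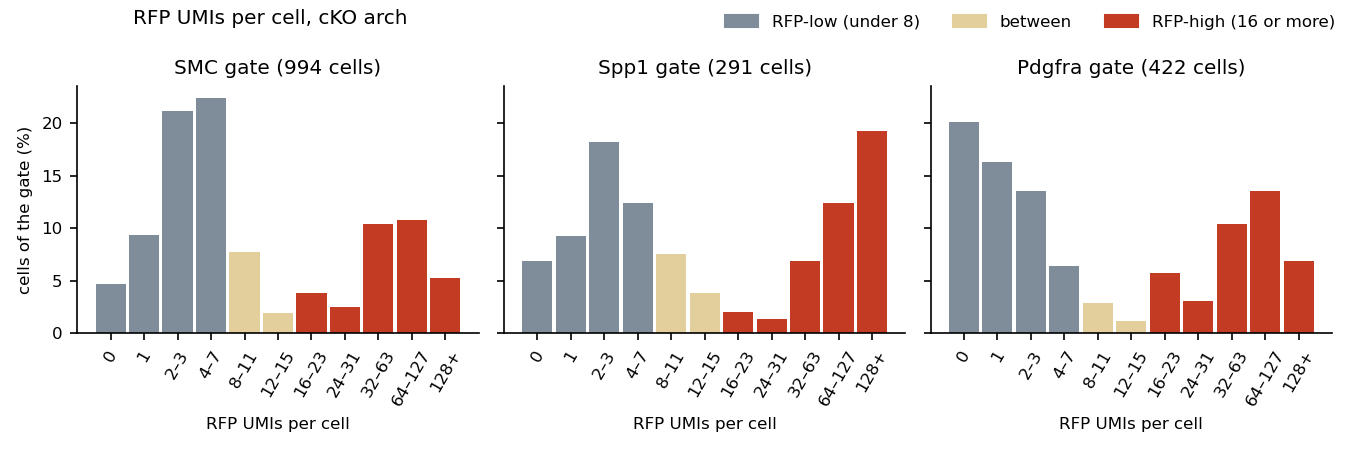
Share of the cells of each gate (y axis, %) by RFP UMIs per cell (x axis, bins that widen to the right) in the cKO arch library, with RFP-low cells in grey, RFP-high cells in red and the cells left out in yellow. Between the low and the high range the emptiest bin is that of 12 to 15 UMIs in the smooth muscle and Pdgfra gate, with 1.91 and 1.18% of cells, and that of 24 to 31 UMIs in the Spp1 gate, with 1.37%.

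The gates held the cells their markers name, with 1 exception. In the smooth muscle gate Acta2, the smooth muscle actin, stood at 21521 CPM in RFP-high and 22473 in RFP-low cells, and Cnn1, calponin, at 1246 and 1306. Dcn, the fibroblast proteoglycan decorin, stood at 5614 and 7391 CPM in the Pdgfra gate. The leukocyte gene Tyrobp was at 11.7 to 26.2 CPM in 5 of the 6 arms, against 1768 in Ptprc-positive cells. It reached 296 CPM in RFP-low cells of the Spp1 gate, where 26 of 136 cells had 20 or more summed UMIs of 10 phagocyte markers, and 24 of these had under 20 UMIs of collagen genes. Only 2 of the 122 RFP-high cells of that gate had as many. Cells with the phagocyte markers had passed the gate through Spp1, and the data go against the label mesenchymal for them. Results of the Spp1 gate are therefore given also without these cells, with 120 RFP-high and 110 RFP-low cells, an alternative added after the data had been seen. A wider list of 14 phagocyte genes is given in the order smooth muscle, Spp1 and Pdgfra gate. In RFP-high cells 7 of 11, 12 of 12 and 7 of 8 tested members were lower by 1.5-fold. The shares lower over all genes were 3.53, 5.56 and 4.59%, and the shares higher 6.12, 7.28 and 5.86%. With the phagocyte-marker cells left out of each gate, 2 of 10, 4 of 4 and 4 of 6 tested members were lower. With all cells the list summed to 154 against 275, 149.9 against 2093 and 232 against 406 CPM. Markers of pericytes, Schwann cells, mesothelium, adipocytes, heart and red cells had 3 higher and 3 lower of 8 tested in the smooth muscle gate (median 0.29), 3 and 1 of 5 in the Spp1 gate (0.62) and 4 and 0 of 7 in the Pdgfra gate (2.14). In the Pdgfra gate the haemoglobin gene Hbb-bs was at 745 against 52.7 CPM, with 82.6% of its UMIs in 1 cell. Endothelial and lymphatic markers summed to 176 against 177, 93.0 against 84.7 and 109.9 against 185 CPM. The part of these other cell types in the results below was not tested, apart from leaving out the phagocyte-marker cells.

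Genes with 50 or more UMIs over both arms were compared, and a 1.5-fold difference was taken as the size to report. Of 10139 genes in the smooth muscle gate, 620 were higher in RFP-high cells (6.12%) and 358 lower (3.53%), with a median log2 ratio of 0.04 over all genes. Below, a pair of levels gives RFP-high cells first, and values in brackets are the log2 ratio of RFP-high over RFP-low cells and, where a range follows, its 95% counting interval. The Spp1 gate gave 592 of 8130 higher (7.28%) and 452 lower (5.56%), with a median of 0.06. The Pdgfra gate gave 480 of 8190 higher (5.86%) and 376 lower (4.59%), with a median of 0.09. Scaling by the median of ratios in place of total UMIs turned these splits to 444 higher and 556 lower in the Spp1 gate and to 317 and 521 in the Pdgfra gate, so that 44.4 and 37.8% of the differing genes were higher in place of 56.7 and 56.1%. The smooth muscle gate then had 557 higher and 403 lower.

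Smad4, the floxed gene, was lower in RFP-high cells of every gate. The smooth muscle gate held 134 Smad4 UMIs in RFP-high and 561 in RFP-low cells, or 35.0 against 72.9 CPM, a log2 ratio of -1.05 (95% counting interval -1.34 to -0.78). At 49.95 against 79.8 CPM the Spp1 gate had a log2 ratio of -0.68 (-1.04 to -0.32), which was -0.83 (-1.21 to -0.46) without the phagocyte-marker cells. The Pdgfra gate had 44.3 against 72.9 CPM and -0.71 (-1.12 to -0.33). RFP-high cells thus still had Smad4 RNA in each gate. Reads of a 5′ library need not cover the deleted exons, so the remaining count does not measure how many cells kept an intact gene. A Smad4 UMI was seen in 27.4% of RFP-high and 59.2% of RFP-low smooth muscle gate cells, and in 10.8% (7.62 to 14.7%) and 18.2% (15.1 to 21.6%) once every cell was thinned to 3000 UMIs. No cell type of the wall is known to lack Smad4, and Ptprc-positive cells had 16.4% (14.5 to 18.3%) thinned. With the 96 cells of 8 to 15 RFP UMIs counted as RFP-high, the Smad4 log2 ratio of the smooth muscle gate was -0.60.

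The other SMAD transducers mostly differed by less than 1.5-fold. Smad1, which carries BMP signals, was at 37.6 against 38.2 CPM in RFP-high against RFP-low smooth muscle gate cells, and Smad5 at 31.9 against 32.1. Smad2, which carries TGF-beta signals, was at 22.5 against 23.9 CPM there. Smad1 and Smad5 of the Spp1 gate had log2 ratios of 0.56 (0.08 to 1.06) and 0.45 (0.02 to 0.90). Smad3, the other TGF-beta transducer, was past the size in the Pdgfra gate, at 33.1 against 18.4 CPM (0.84, 0.25 to 1.45), and apart from Smad4 no other of the 5 transducers was in any gate.

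Levels along RFP were stepped in the smooth muscle gate. Smad4 stood at 68.9 CPM in cells with 0 to 2 RFP UMIs, 75.3 with 3 to 7, 77.5 with 8 to 15, 43.3 with 16 to 31 and 33.1 with 32 or more. Id1 had 90.2, 106, 93.4, 63.6 and 34.4 CPM, and Id3 had 1096, 1134, 1018, 643 and 457. Cells between the RFP boundaries were thus near the RFP-low cells for these 3 genes. Id2 of the Pdgfra gate was at 141 and 153 CPM in the 2 lowest bins and at 66.1, 88.0 and 56.6 in the others, where the bin of 8 to 15 UMIs holds 17 cells. For the Spp1 gate the bin of 16 to 31 UMIs holds 10 cells, and its Smad4 level of 88.3 CPM was no lower than that of the RFP-low bins.

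**Figure D2:**
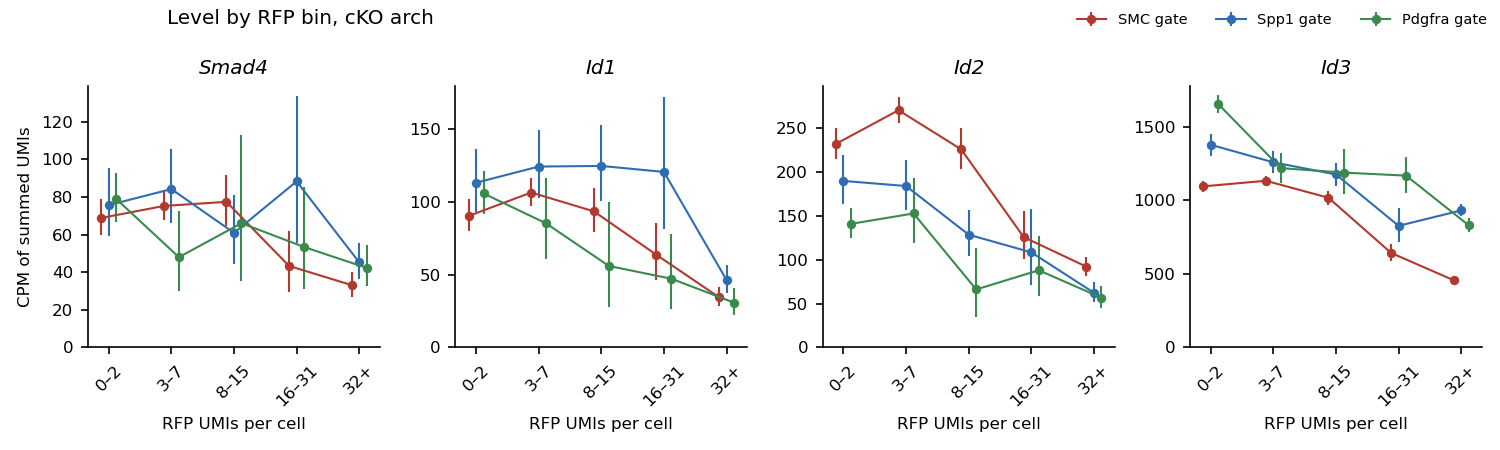
Level of Smad4, Id1, Id2 and Id3 (y axes, CPM of summed UMIs, each from 0) by RFP UMIs per cell (x axes, 5 bins) in the 3 gates of the cKO arch, with exact 95% Poisson intervals that cover counting error only. In the smooth muscle gate Smad4 is at 68.9 to 77.5 CPM in the 3 lower bins and at 43.3 and 33.1 in the 2 upper ones.

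BMP target genes were lower in RFP-high cells as a group, in all 3 gates. The list holds 16 genes of the file, of which 14, 12 and 11 passed the count minimum in the smooth muscle, Spp1 and Pdgfra gate. Of these, 9, 6 and 8 were lower by 1.5-fold, where 3.53, 5.56 and 4.59% of all genes were, and the median log2 ratios were -0.88, -0.80 and -0.85. Without the phagocyte-marker cells the Spp1 gate had 7 lower and a median of -0.98. Dlx5, a homeobox gene of bone and neural crest, was the 1 member past the size in the other direction, at 11.7 against 7.27 CPM in the smooth muscle gate.

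Id1 stood at 39.7 against 100.3 CPM in RFP-high against RFP-low smooth muscle gate cells, a log2 ratio of -1.33 (-1.60 to -1.08). Id2 was at 98.2 against 256 CPM (-1.38, -1.55 to -1.22) and Id3, the most abundant Id gene of this gate, at 491 against 1119 (-1.19, -1.26 to -1.12). The Pdgfra gate gave the same order of arms, with 33.6 against 102 CPM for Id1, 62.2 against 143 for Id2 and 891 against 1569.7 for Id3. Their log2 ratios were -1.59 (-2.03 to -1.18), -1.20 (-1.53 to -0.89) and -0.82 (-0.90 to -0.73). Id1 of the Spp1 gate was at 54.3 against 118 CPM (-1.12, -1.45 to -0.80) and Id2 at 67.3 against 187 (-1.47, -1.76 to -1.20). Id3 of that gate, at 921 against 1321 CPM (-0.52, -0.60 to -0.44), was under 1.5-fold until the phagocyte-marker cells were left out (-0.71). Id4 was at 22.2 against 41.8 CPM in the smooth muscle gate (-0.91). All 4 encode inhibitors that bind helix-loop-helix factors without binding DNA. The share of cells with an Id1 UMI, after thinning to 3000 UMIs, was 6.77% (4.29 to 10.1%) in RFP-high and 23.2% (19.8 to 26.9%) in RFP-low smooth muscle gate cells, or 19.7 and 48.5% unthinned. Ptprc-positive cells had 4.58% (3.59 to 5.75%) thinned, an interval that overlaps that of the RFP-high cells, at median depths of 7038 and 9979 UMIs before thinning.

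Feedback inhibitors were lower as well. Smad6, which blocks BMP receptor signalling, was at 30.3 against 58.8 CPM in RFP-high against RFP-low cells of the smooth muscle gate (-0.95, -1.26 to -0.66). Its levels were 34.7 against 76.6 CPM in the Spp1 gate (-1.14, -1.55 to -0.74) and 28.6 against 68.6 in the Pdgfra gate (-1.25, -1.75 to -0.80). Smad7, which blocks both branches, was at 88.3 against 161 CPM in the smooth muscle gate (-0.86) and at 84.7 against 154 in the Pdgfra gate (-0.86), and at -0.48 in the Spp1 gate it stayed under the size. Smad9, the BMP transducer that is itself induced by BMP, was at 7.05 against 19.5 CPM in the smooth muscle gate (-1.44) and at 6.52 against 20.4 in the Spp1 gate (-1.62). Atoh8, a helix-loop-helix factor, was at 22.2 against 49.2, 18.7 against 39.7 and 15.1 against 32.2 CPM in the 3 gates, with log2 ratios of -1.14, -1.08 and -1.07. Bambi, a decoy receptor, and Msx1, a homeobox gene, passed the size in none of the gates. Grem1 of the Spp1 gate, a BMP antagonist, had -1.56, but 0.01 without the 1 cell that held 47.7% of its UMIs.

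**Figure D3:**
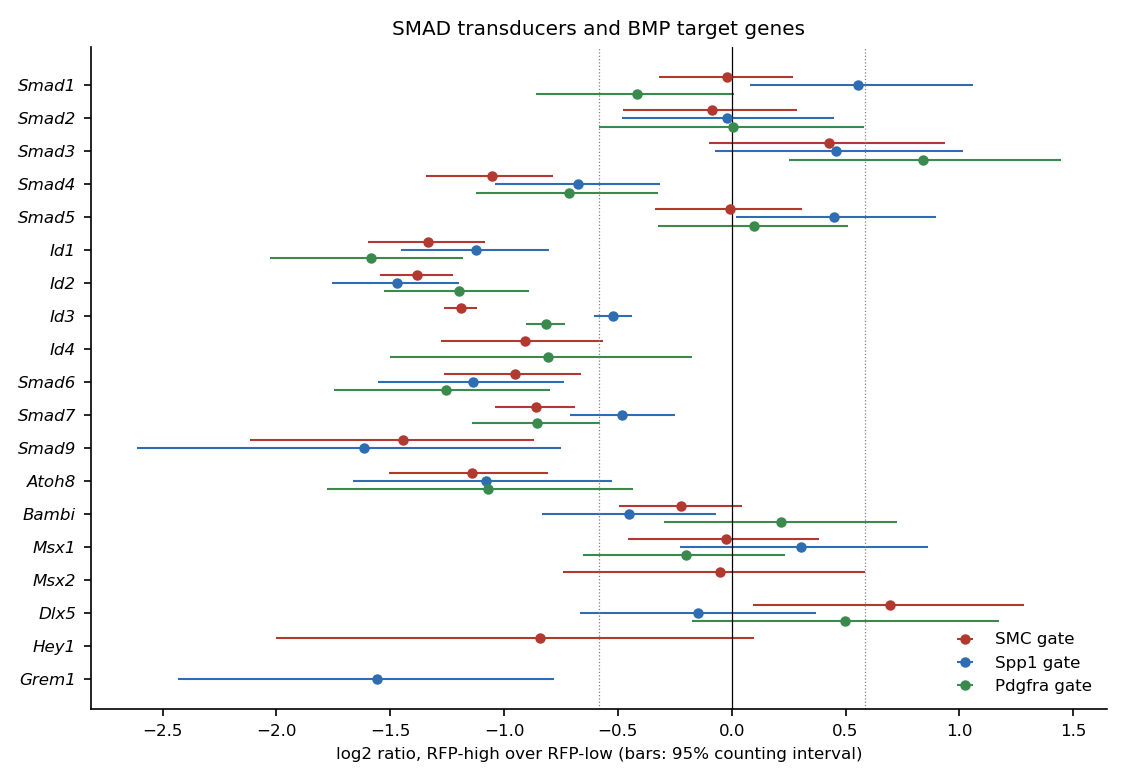
Log2 ratio of RFP-high over RFP-low cells (x axis) for the SMAD transducers and BMP target genes that passed the count minimum and are reported here (y axis), by gate, with exact conditional 95% intervals for counting error and dotted lines at 1.5-fold. Smad4, Id1, Id2, Smad6 and Atoh8 lie left of the lower line in all 3 gates.

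Promoter windows were searched for Id1, Id2, Id3, Smad6 and Atoh8, which were lower in RFP-high cells. Id3 was lower by under 1.5-fold in the Spp1 gate with all cells, and Id1 had no entry among the windows used. Windows are shown for Id2, Id3 and Smad6 because they hold a match to a motif searched. They run from 250 bases before to 25 after the start of the gene and come from RefSeq, build GRCm38.p6. The motifs were GGCGCC, the palindrome GTCTAGAC, and GTCTG with its reverse complement CAGAC, searched on both strands. Of 32851 windows of 300 bases in the table, 11.9% hold GGCGCC, 0.213% GTCTAGAC and 49.6% GTCTG or CAGAC. Capitals mark the matches. Id2 has 1 GGCGCC, Id3 has 2 matches to GTCTG or CAGAC, Smad6 has 1 GTCTAGAC, and the Atoh8 window has none of these letters. A match describes the window and says nothing of binding.
Id2, chr12:25096068-25096342, minus strand: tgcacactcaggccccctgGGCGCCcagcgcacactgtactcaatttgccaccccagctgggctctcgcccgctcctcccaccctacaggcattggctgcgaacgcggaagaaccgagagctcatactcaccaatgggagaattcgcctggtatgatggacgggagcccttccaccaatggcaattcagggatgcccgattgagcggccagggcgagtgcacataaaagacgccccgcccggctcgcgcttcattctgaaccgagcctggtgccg
Id3, chr4:136143572-136143846, plus strand: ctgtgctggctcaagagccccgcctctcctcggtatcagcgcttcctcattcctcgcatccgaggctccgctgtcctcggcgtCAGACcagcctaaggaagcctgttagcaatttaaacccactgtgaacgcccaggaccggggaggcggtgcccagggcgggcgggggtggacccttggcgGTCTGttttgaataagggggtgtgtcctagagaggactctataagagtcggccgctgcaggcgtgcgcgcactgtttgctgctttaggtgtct
Smad6, chr9:64022035-64022309, minus strand: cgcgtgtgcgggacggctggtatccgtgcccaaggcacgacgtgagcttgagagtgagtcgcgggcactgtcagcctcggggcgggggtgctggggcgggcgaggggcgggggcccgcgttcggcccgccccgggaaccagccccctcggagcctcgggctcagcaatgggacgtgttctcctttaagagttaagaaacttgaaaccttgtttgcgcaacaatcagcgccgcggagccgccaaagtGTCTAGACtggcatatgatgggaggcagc

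Ligands showed less of a common direction. Of 10, 8 and 9 ligand genes tested in the smooth muscle, Spp1 and Pdgfra gate, 3, 1 and 2 were higher and 1, 0 and 2 lower. Over all genes 6.12, 7.28 and 5.86% were higher and 3.53, 5.56 and 4.59% lower in that order of gates. Bmp2 was higher in RFP-high cells of the smooth muscle gate, at 41.5 against 27.3 CPM (0.61), and of the Pdgfra gate, at 36.4 against 13.3 (1.44, 0.82 to 2.12). Inhba, the activin A subunit, was at 176 against 86.8 CPM in the Spp1 gate (1.02) and at 83.5 against 39.9 in the Pdgfra gate (1.06). Tgfb3 went opposite ways, with 136 against 78.7 CPM in the smooth muscle gate (0.78, 0.61 to 0.96) and 55.5 against 114 in the Pdgfra gate (-1.03, -1.38 to -0.70), a difference between gates that was not tested. Bmp3 was at 4.70 against 14.03 CPM in the smooth muscle gate (-1.54), and Gdf10 at 441 against 725 in the Pdgfra gate (-0.72).

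Receptor genes had 1 of 11 higher and 1 lower in the smooth muscle gate, where 6.12 and 3.53% of all genes were. The Pdgfra gate had 0 of 10 past the size, where 5.86% of all genes were higher and 4.59% lower. Medians of the receptor genes were 0.05 and 0.02 in these 2 gates. The Spp1 gate had 3 of 10 higher, where 7.28% of all genes were, 0 lower and a median of 0.45, or 0.36 without the phagocyte-marker cells. Bmpr1a, a type I BMP receptor, was at 160.3 against 155 CPM in RFP-high against RFP-low smooth muscle gate cells, and Bmpr2, the type II receptor, at 123 against 121. Tgfbr3, the co-receptor betaglycan, was at 84.6 against 47.8 CPM there (0.82), and the type I receptor gene Bmpr1b at 9.40 against 16.5 (-0.80). The 3 higher receptor genes of the Spp1 gate were Tgfbr2 at 159 against 101 CPM (0.64), Tgfbr3 at 75.6 against 47.7 (0.66) and Acvrl1 at 49.95 against 27.3 (0.86). Among secreted binders Sost, which encodes sclerostin, was lower in every gate and is described with the genes shared by the gates. Ltbp2, a latent TGF-beta binding protein, was at 391 against 759 CPM in the Pdgfra gate (-0.96) and 885 against 1349 in the Spp1 gate (-0.61). Chrdl1, a BMP antagonist, was at 147 against 278 CPM in the Pdgfra gate (-0.91), while Vwc2, another of that kind, was at 42.1 against 16.7 (1.32).

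TGF-beta target genes had 4 higher and 4 lower of 25 in the smooth muscle gate, with a median of -0.11. The Spp1 gate had 2 higher and 5 lower of 25 (median -0.29), and 3 higher and 6 lower without the phagocyte-marker cells. The Pdgfra gate had 0 higher and 6 lower of 24 (median -0.24). Of all genes 6.12, 7.28 and 5.86% were higher and 3.53, 5.56 and 4.59% lower in these gates. Pmepa1, a feedback inhibitor of TGF-beta signalling, was at 679.6 against 1241 CPM in the smooth muscle gate (-0.87, -0.93 to -0.81), and Skil, a repressor of SMAD activity, at 53.8 against 86.6 (-0.69). Eln, which encodes elastin, was at 1432 against 2535 CPM in that gate (-0.82) and at 823 against 1791 in the Pdgfra gate (-1.12, -1.21 to -1.04). In the Pdgfra gate 1 RFP-low cell held 18.3% of the Eln UMIs, and without it Eln was at -0.72. Fn1, fibronectin, was lower in the Spp1 gate (-0.66) and the Pdgfra gate (-0.84), as was Thbs1, thrombospondin 1. Thbs1 was at 237 against 745 CPM in the Pdgfra gate (-1.65) and at 723 against 2013 in the Spp1 gate (-1.48), where it was -0.64 without the phagocyte-marker cells. In smooth muscle gate cells it was instead at 180.4 against 56.2 (1.68), with 23.1% of the UMIs in 1 cell. Adamts1, a matrix protease, was higher in the smooth muscle gate (0.91) and the Spp1 gate (0.82). Tgfbi of the Spp1 gate went from -1.21 to 1.79 once the phagocyte-marker cells were left out.

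Of 7556 genes tested in all 3 gates, 30 were higher (0.397%) and 21 lower (0.278%) in RFP-high cells by 1.5-fold in every gate. The 10 lower genes named by the rule included 4 BMP targets, Id1, Id2, Smad6 and Atoh8. Sost was at 285 against 834 CPM in the smooth muscle gate (-1.55, -1.64 to -1.46), at 44.3 against 183 in the Spp1 gate (-2.04) and at 28.0 against 114 in the Pdgfra gate (-2.01). Emb, the adhesion protein embigin, had log2 ratios of -1.27, -1.98 and -2.06 in that order of gates. Dsp, the desmosome protein desmoplakin, had -1.18, -1.67 and -1.50, although the last was 0.02 under stricter gates. Acan, the cartilage proteoglycan aggrecan, had -1.29, -0.98 and -2.31. Igfbp6, an IGF binding protein, had -3.41, -1.70 and -0.94, with 34.2 and 44.8% of its UMIs in 1 cell in the first 2 gates, and -0.36 in the Spp1 gate without that cell. Uchl1, a ubiquitin hydrolase known from neurons, had -0.84, -0.998 and -1.32, and 0.18 in the Spp1 gate with RFP-low set at under 3 UMIs.

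Sncg, which encodes gamma-synuclein, was higher in RFP-high cells of all 3 gates. It stood at 814 against 338, 396 against 142 and 279 against 109.8 CPM, with log2 ratios of 1.27 (1.19 to 1.35), 1.48 (1.28 to 1.68) and 1.35 (1.13 to 1.57). Calcrl, the receptor for adrenomedullin and related peptides, was at 29.0 against 6.104 CPM in the smooth muscle gate and had log2 ratios of 2.24, 1.30 and 1.92. Adamts5, an aggrecan-cleaving protease, was at 150.4 against 34.5, 232 against 56.3 and 322 against 173 CPM, with 2.12, 2.04 and 0.90. Mmp3, the protease stromelysin 1, had 1.70, 2.93 and 0.96, and 1.13 and 0.58 in the smooth muscle and Pdgfra gate without the cell with most of its UMIs. The homeobox gene Meox2 had 2.77, 0.85 and 0.88, Itih4 had 1.38, 2.54 and 1.21, and Plvap had 0.95, 0.87 and 1.52. Hmga1, a chromatin protein gene, had 0.91, 1.05 and 2.40, but -0.16 in the smooth muscle gate with cells thinned to 3000 UMIs. The interferon-stimulated genes Ifit3b and Isg15 complete these 10, with 2.78, 1.07 and 1.64, and 1.26, 0.93 and 1.000. Without the cell with most UMIs of the gene Isg15 was at 0.38 and 0.46 in the Spp1 and Pdgfra gate, and Ifit3b at 0.57 and 0.83. The 3 gates use separate cells of the same library, so these counts carry no replication.

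The 12 highest genes of the smooth muscle gate included Tmem215, a membrane protein gene, which was at 33.7 against 2.73 CPM in RFP-high against RFP-low cells (3.60, 2.95 to 4.37), seen in 71 and 13 cells. Apoe, the lipid carrier apolipoprotein E, was at 306 against 53.5 CPM (2.51, 2.35 to 2.68), and Cp, the copper protein ceruloplasmin, at 109 against 21.7 (2.33). Nr4a1, an orphan nuclear receptor, was at 221 against 55.2 CPM (2.000, 1.83 to 2.17). The metal transporter gene Slc11a1 (2.55) and the lipase inhibitor gene Angptl4 (2.33) were also among the 12 highest. Ifit1, Ifit3b and Ifit3 were in that list with 3.08, 2.78 and 2.60, but 1 cell held 52.4, 52.8 and 39.1% of their UMIs, and without that cell they were at 1.60, 1.15 and 1.55. Ptprc-positive and Pecam1-positive cells had 972 and 888 CPM of Apoe, 34.4 and 171 of Cp and 348 and 88.8 of Nr4a1. They had 110 and 13.0 CPM of Slc11a1, 14.6 and 44.7 of Angptl4 and 0.70 and 3.07 of Tmem215. The part of RNA from such cells in these differences was not tested.

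Rgs5, a regulator of G protein signalling known from pericytes and arterial smooth muscle, was at 26.4 against 178 CPM in RFP-high against RFP-low smooth muscle gate cells (-2.75, -3.06 to -2.47). Esm1, a secreted proteoglycan known from endothelial tip cells, was at 4.96 against 43.2 CPM (-3.09), with UMIs in 6 and 44 cells. Pcolce2, an enhancer of collagen processing, was at 55.1 against 157 CPM (-1.51), and Myoz2, a sarcomere protein gene, at 15.7 against 45.6 (-1.53). Mfap4, an elastic fibre protein, was at 276 against 619 CPM (-1.16, -1.26 to -1.07). Sfrp4, a secreted Wnt inhibitor, had -1.84, but 58.3% of its UMIs were in 1 cell and without that cell it was at -0.27.

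Contractile genes of the smooth muscle gate were near level. Of 33 tested members 1 was higher by 1.5-fold, where 6.12% of all genes were, 0 were lower, and the median log2 ratio was -0.01. Acta2, Tagln and Cnn1 had -0.06, -0.12 and -0.07. Pln, phospholamban, was the member past the size, at 54.3 against 14.9 CPM (1.86, 1.53 to 2.20). Ednra and Agtr1b, receptors for endothelin and angiotensin, were also higher (1.80 and 2.06), as was the potassium channel gene Kcnk3 (1.61), while the adrenergic receptor gene Adra1d was lower (-1.89). Among Spp1 gate cells 10 of 31 contractile genes were higher, where 7.28% of all genes were, and 11 of 29 without the phagocyte-marker cells, with Myl9, a myosin light chain gene, at 457 against 211 CPM (1.12). Tagln (0.74) and Cnn1 (0.95) of that gate were at -0.20 and -0.22 with RFP counted per 10000 UMIs, and Tagln, Cnn1 and Acta2 at -0.34, -0.18 and -0.09 with cells thinned to 3000 UMIs.

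Factors of body position and origin differed in part. Hoxb5 was at 1.57 against 11.3 CPM in RFP-high against RFP-low smooth muscle gate cells (-2.74, -4.34 to -1.67) and Hoxb6 at 2.09 against 5.84 (-1.41). They are 2 of the 3 tested Hox genes of paralogues 5 to 11, which pattern the trunk, and none of that list had 50 UMIs in the other gates. Among 20 tested factors of the outflow tract and neural crest 6 were higher and 2 lower in the smooth muscle gate. The Spp1 gate had 2 higher and 1 lower of 16, and the Pdgfra gate 3 and 0 of 17. Shares over all genes were 6.12, 7.28 and 5.86% higher and 3.53, 5.56 and 4.59% lower in the smooth muscle, Spp1 and Pdgfra gate. Tfap2b, a factor of neural crest, was at 12.01 against 2.21 CPM (2.42, 1.61 to 3.34), and Tbx20, a T-box factor of the heart, at 13.3 against 28.7 (-1.10). Nr2f2, a nuclear receptor of veins and mesenchyme, was higher in all 3 gates, with 0.82, 0.82 and 0.74. Hhip, the decoy receptor for hedgehog ligands, had 60 against 2 UMIs in the smooth muscle gate, a log2 ratio with an interval of 3.999 to 8.99, and Ihh, a hedgehog ligand, was at 1.57 against 9.35 CPM (-2.47).

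Of 28 immediate early genes tested in the smooth muscle gate 15 were higher, where 6.12% of all genes were, and 0 lower, with a median of 0.65, Fos at 1244 against 669.6 CPM (0.89), Egr1 at 802 against 342 (1.23) and Junb at 579.6 against 229 (1.34). Fos, Egr1 and Junb encode transcription factors induced within minutes of a stimulus. The Spp1 gate had 0 higher and 11 of 27 lower, where 5.56% of all genes were, with a median of -0.41, which became 3 lower and -0.27 without the phagocyte-marker cells. The difference between gates was not tested. Nr4a1 was then at -0.28 in place of -0.69, and Ier3 at -0.13 in place of -1.06, while Egr2 was at -1.43 and Atf3 at -0.82. The Pdgfra gate had none past the size among 26. Median mitochondrial shares were 3.95 and 4.24% in RFP-high and RFP-low smooth muscle gate cells, 2.77 and 3.05% in the Spp1 gate and 3.09 and 2.93% in the Pdgfra gate, and their part in the result was not tested.

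Interferon-stimulated genes were higher in RFP-high cells of the smooth muscle gate, with 23 of 31 past 1.5-fold, where 6.12% of all genes were, 0 lower and a median of 0.90. Psmb8, an immunoproteasome subunit gene, was at 46.0 against 14.03 CPM (1.71, 1.36 to 2.07) and Rtp4 at 18.8 against 7.01 (1.42), although Rtp4 was at -0.12 with cells thinned to 3000 UMIs. Without the cell with most UMIs of the gene, Psmb8, Rtp4 and Isg15 of this gate were at 1.54, 0.99 and 0.82. The list count and median include such cells. The Spp1 gate had 12 of 36 higher and 2 lower, with a median of 0.34, and the Pdgfra gate 7 of 36 higher and 1 lower, with 0.27, where 7.28 and 5.86% of all genes were higher. Complement genes had 5 of 9 higher and 1 lower in the smooth muscle gate, 6 of 12 higher and 1 lower in the Spp1 gate and 0 of 12 higher and 3 lower in the Pdgfra gate, with medians of 1.01, 0.56 and -0.20. Over all genes 6.12, 7.28 and 5.86% were higher and 3.53, 5.56 and 4.59% lower in that order of gates. In the smooth muscle gate C1s1, a protease of the classical pathway, was at 188 against 64.5 CPM (1.54) and the C1 inhibitor gene Serping1 at 645 against 321 (1.01). C4b was at 72.1 against 20.0 CPM in that gate (1.85) and at 414 against 873 in the Pdgfra gate (-1.08). C3, the central complement protein, was at 1235 against 2197 CPM in the Pdgfra gate (-0.83).

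Collagen chains had 2 higher and 1 lower of 19 in the smooth muscle gate, 1 and 2 of 20 in the Spp1 gate and 4 and 5 of 22 in the Pdgfra gate, with medians of -0.06, -0.09 and -0.06. Proteoglycans and matricellular genes had 5 higher and 3 lower of 27, 5 and 5 of 30, and 3 and 11 of 30, with medians of -0.02, 0.02 and -0.30. In the same order of gates 6.12, 7.28 and 5.86% of all genes were higher and 3.53, 5.56 and 4.59% lower. In the smooth muscle gate Col6a6, a collagen VI chain, had 53 against 3 UMIs, a log2 ratio with an interval of 3.53 to 7.47, and Col18a1, which gives rise to endostatin, was at 763 against 1249.6 CPM (-0.71). Vcan, versican, was at 59.8 against 128 CPM (-1.09), Sparcl1, a matricellular protein, at 1042 against 2065 (-0.99) and the glypican gene Gpc3 at 47.5 against 14.9 (1.67). Of 24 proteases and inhibitors tested there 8 were higher and 2 lower, where 6.12 and 3.53% of all genes were. Mmp2 (1.16) was among the higher and Pcsk5 (-1.18) among the lower. IGF ligand and binder genes included Igf2 at 15.1 against 1.56 CPM (3.23) and Igfbp4 at 535 against 231 (1.21). The secreted Wnt inhibitor Sfrp2 was at 932 against 297 CPM (1.65) and the chemokine gene Cxcl12 at 174 against 73.4 (1.25). Elastic fibre genes were lower in the Pdgfra gate in 8 of 18, where 4.59% of all genes were, with a median of -0.46. Mfap5, a microfibril protein, was at 829 against 1487 CPM (-0.84), Fbln1, a fibulin, at 248 against 436 (-0.81) and Lox, the cross-linking enzyme, at 278 against 473 (-0.77).

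Of 23 proteases and inhibitors tested in the Spp1 gate 9 were higher, where 7.28% of all genes were, and 2 lower, with a median of 0.22. Mmp3 was at 886 against 116 CPM in RFP-high against RFP-low cells (2.93, 2.73 to 3.14), and Thbd, the anticoagulant receptor thrombomodulin, at 208 against 49.8 (2.06, 1.74 to 2.40). Adamts8 and Adamts15, proteases of the Adamts5 family, were at 25.6 against 4.82 and 24.8 against 4.82 CPM. Igf1 was at 81.2 against 28.4 CPM (1.51), the IGF binder gene Igfbp5 at 635 against 212 (1.58), Sfrp2 at 632 against 241 (1.39) and Frzb, another Wnt inhibitor, at 257 against 111 (1.21). The syndecan gene Sdc4 was at 470.0 against 228 CPM (1.04) and Cxcl12 at 561 against 246 (1.19). Thbs4, Angptl7, Ccl19, Hhip, Ndnf and Saa3 are also among the 12 highest, but 1 cell held 98.1, 62.2, 50, 47.6, 45.4 and 45.3% of their UMIs, and without it they were at 1.29, 2.06, 0.54, 1.78, 1.20 and 3.97. Thbs4 had 54 UMIs in RFP-high and 0 in RFP-low cells, and 53 of them were in 1 cell. The direction of Saa3 and Ndnf turned with cells thinned to 3000 UMIs (-1.42 and -0.0026), and that of Ndnf also with RFP counted per 10000 UMIs (-0.69). Apod (2.96), Itih4 and Trp53i11 (2.85) had 24.3, 20.6 and 26.0% in 1 cell.

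The 12 lowest genes of the Spp1 gate were mostly phagocyte genes. UMIs in RFP-high and RFP-low cells were 3 and 911 for the arginase gene Arg1, 5 and 881 for the chemokine gene Cxcl3, 1 and 207 for Ccl24 and 2 and 243 for the lectin gene Clec4n. They were 0 and 91 for Ccl3, 0 and 89 for the scavenger receptor gene Msr1 and 0 and 77 for Ms4a4a. Pf4, Ccl6, Ppbp and Cd14 had log2 ratios of -5.55, -5.13, -5.26 and -4.81. The remaining gene, Car3, had 97.5% of its UMIs in 1 cell and was at 0.17 without it, on few UMIs. Without cells that had a UMI of Tyrobp or Cdh5, Arg1 and Cxcl3 were both at 0.01. RFP-high cells held at most the 3 and 5 UMIs above, so this value does not show that the arms were level. Inflammatory mediators were lower in 11 of 23 with all cells, where 5.56% of all genes were, with Cxcl2 at 30.8 against 549.8 CPM (-4.15). Another 5 were higher, where 7.28% of all genes were. Without the phagocyte-marker cells 8 of 21 were lower and 5 higher. Il1b and Ccl2 had -3.88 and -1.51, and 0.66 and 0.33 without cells that had a UMI of Tyrobp or Cdh5, with no minimum of UMIs. The smooth muscle gate had 5 higher and 1 lower of 16 mediators, where 6.12 and 3.53% of all genes were. The Pdgfra gate had 6 and 7 of 26, where 5.86 and 4.59% were.

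With the phagocyte-marker cells left out, 11 of 18 cartilage and bone genes of the Spp1 gate were lower and 1 higher, with a median of -0.68. With all cells 8 of 18 were lower, where 5.56% of all genes were, and the median was -0.46. Col2a1, the collagen of hyaline cartilage, was at 6.29 against 125 CPM (-4.27, -5.21 to -3.54), seen in 6 and 18 cells of the RFP-high and RFP-low arm. Ibsp, bone sialoprotein, was at 278 against 984 CPM (-1.82), in 12 and 22 cells, and Comp, cartilage oligomeric matrix protein, at 1355 against 3324 (-1.29, -1.36 to -1.23). Penk, the enkephalin precursor gene, was at 278 against 1076 CPM (-1.95). With genes that had 20% or more of their UMIs in 1 cell also left out, Sost, Acan, Emb, Dsp and Id2 were among the 12 lowest, at -2.23, -1.59, -1.71, -1.61 and -1.45. Spp1, the osteopontin gene, set the gate and was at 15798 and 18077 CPM with all cells.

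Among the lowest genes of the Pdgfra gate Epyc, the proteoglycan epiphycan, was at 11.8 against 92.6 CPM in RFP-high against RFP-low cells (-2.94, -3.70 to -2.33), and Ddah1, which degrades inhibitors of nitric oxide synthesis, at 15.1 against 95.6 (-2.64). Chad, chondroadherin, had 2 against 209 UMIs, a log2 ratio with an interval of -9.38 to -4.45, and 39.8% of its UMIs were in 1 cell. Of 14 cartilage and bone genes tested 7 were lower, where 4.59% of all genes were, and 0 higher, with a median of -0.61, among them Col11a1 (-1.66) and Comp at 1752 against 3216 CPM (-0.88). The collagen genes Col12a1 and Col8a1 were at 80.7 against 287 (-1.83) and 303 against 784 CPM (-1.37). Aspn, asporin, was at 261 against 733 CPM (-1.49), and Pi16, a marker of adventitial fibroblasts, at 364 against 1035 (-1.51, -1.64 to -1.38). Sfrp1 was at 109 against 283 CPM (-1.37) and Rgs5 had 173 against 640 UMIs (-1.50). Col6a5, C1qtnf3, Smpd3 and Tcf21 had -4.82, -3.28, -3.45 and -2.90, with 31.2, 41.4, 21.2 and 30.4% of UMIs in 1 cell, and Mrgprg had 2 against 193 UMIs. For Dlk1, Slpi, Car3 and Npy 1 cell held 97.2, 93.1, 95.1 and 92.4%, and without it they were at -1.94, -0.25, 0.38 and 1.76, each on few UMIs.

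On the higher side the Pdgfra gate had Plvap, an endothelial diaphragm protein gene, at 157 against 54.5 CPM (1.52, 1.22 to 1.84), Tnnt2, cardiac troponin T, at 59.4 against 13.3 (2.14), Ccdc42 at 30.8 against 7.72 (1.97) and Hmga1 at 25.8 against 4.72 (2.40). Col15a1, a basement membrane collagen, was at 298 against 154 CPM (0.95), and Mylk, the myosin light chain kinase gene, at 218 against 115 (0.92). Ccl19 (2.24), Saa3 (2.44) and Trp53i11 (3.73) had 33.6, 34.0 and 25.7% of their UMIs in 1 cell, and the first 2 were at 1.44 and 1.66 without it. Cxcl5, Slc7a11, Hist1h2ae, Nrep and Cxcl9 rest on 1 cell each, which held 93.5, 90.8, 83.3, 73.4 and 53.6% of the UMIs. Without it the log2 ratios were 0.94, -0.24, -0.37, 0.60 and -0.17, and few UMIs of Cxcl5, Slc7a11 and Hist1h2ae were then left.

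**Figure D4:**
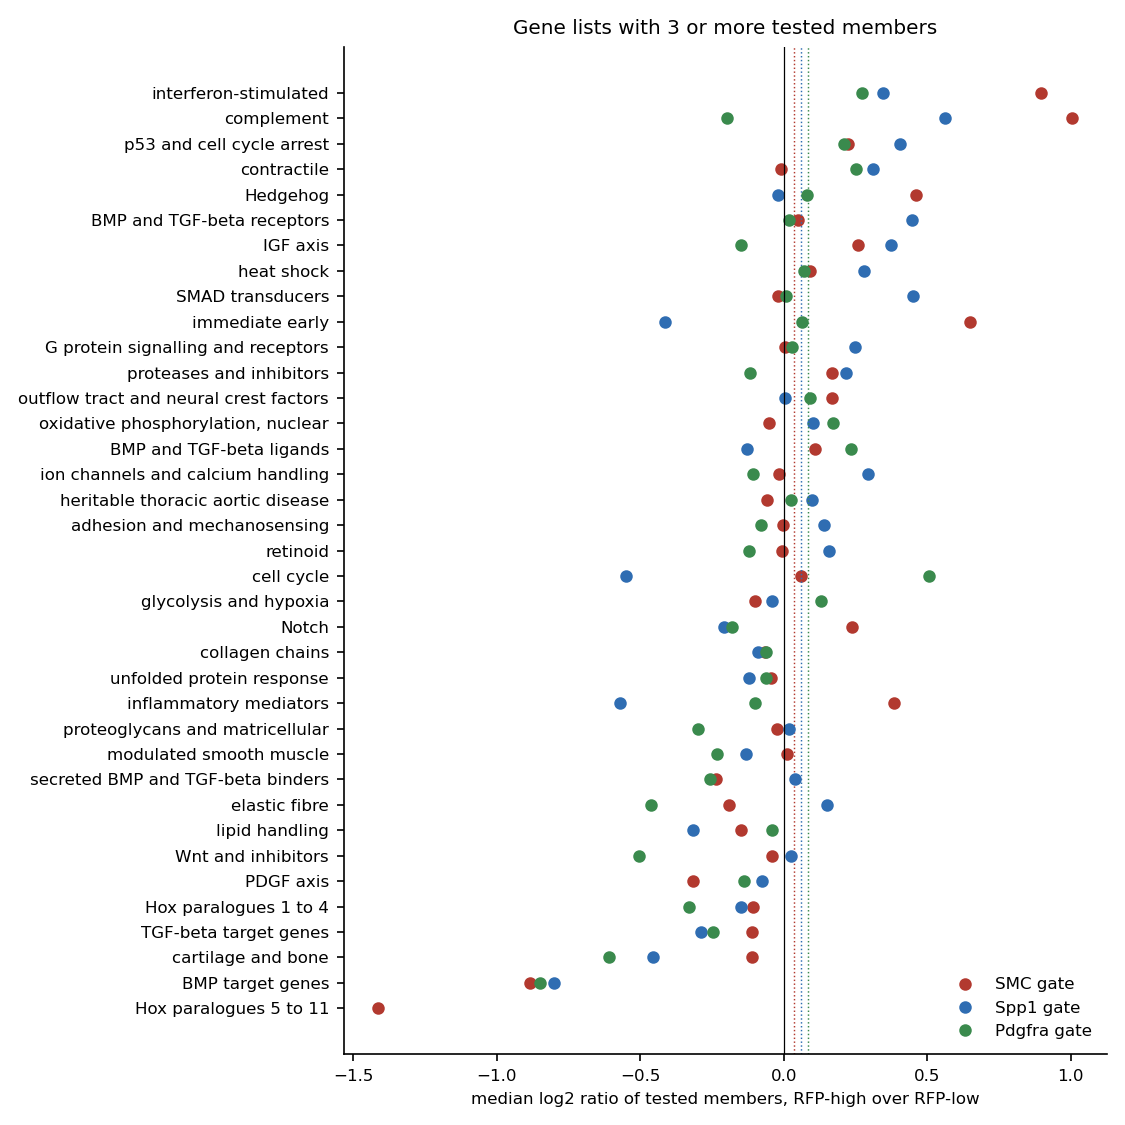
Median log2 ratio of RFP-high over RFP-low cells (x axis) of the tested members of each gene list with 3 or more of them (y axis), by gate, with dotted lines at the median of all tested genes of the gate (0.04, 0.06 and 0.09). BMP target genes are at -0.88, -0.80 and -0.85, and immediate early genes at 0.65 in the smooth muscle and -0.41 in the Spp1 gate.

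The other libraries do not list RFP, so all cells of the same gates stand beside the arms, with no test. They held 2455, 1099 and 909 smooth muscle gate cells in the libraries of control arch, cKO descending aorta and control descending aorta and 1007, 883 and 701 Pdgfra gate cells, while their Spp1 gates held 4, 0 and 1 cells and were not compared. Smad4 stood at 70.3, 88.1 and 93.8 CPM in the smooth muscle gate of these libraries, against 35.0 in the RFP-high and 72.9 in the RFP-low arm. The control arch interval of 67.6 to 73.0 CPM covers the RFP-low level, and the descending libraries lie above it. Id1 was at 114, 53.1 and 68.9 CPM, Id2 at 163, 133 and 140.1 and Id3 at 1053, 709.9 and 810.2, all above the RFP-high arm. Smad6 was at 60.9 CPM in the control arch but at 27.1 and 25.4 in the descending libraries, below the 30.3 of the RFP-high arm. Sost was at 959.7, 433 and 466 CPM, against 285 in the RFP-high arm.

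Pdgfra gate cells gave another order. Smad4 was at 79.9, 91.8 and 82.1 CPM in the other libraries, against 44.3 in the RFP-high and 72.9 in the RFP-low arm. Id1 was at 50.6, 23.4 and 28.9 CPM there, so the RFP-high arm at 33.6 lay within that range and the RFP-low arm at 102 above it. Id2, at 68.0, 37.8 and 40.1 CPM, and Smad6, at 22.6, 8.67 and 9.64, likewise lay below the RFP-low arm with its 143 and 68.6. Emb was at 5.09, 7.98 and 8.70 CPM in the other libraries and at 32.5 and 136 in the arms. For smooth muscle, Tmem215 was at 0.36, 0.98 and 0 CPM in the other libraries, against 33.7 in the RFP-high arm, and Mmp3 at 2.19, 3.69 and 0.40 against 165. Rgs5 was at 526, 722 and 511 CPM, above both arms. Libraries differ in genotype or vessel segment, in depth and, for the cKO arch, in annotation, and these cannot be told apart here.

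**Figure D5:**
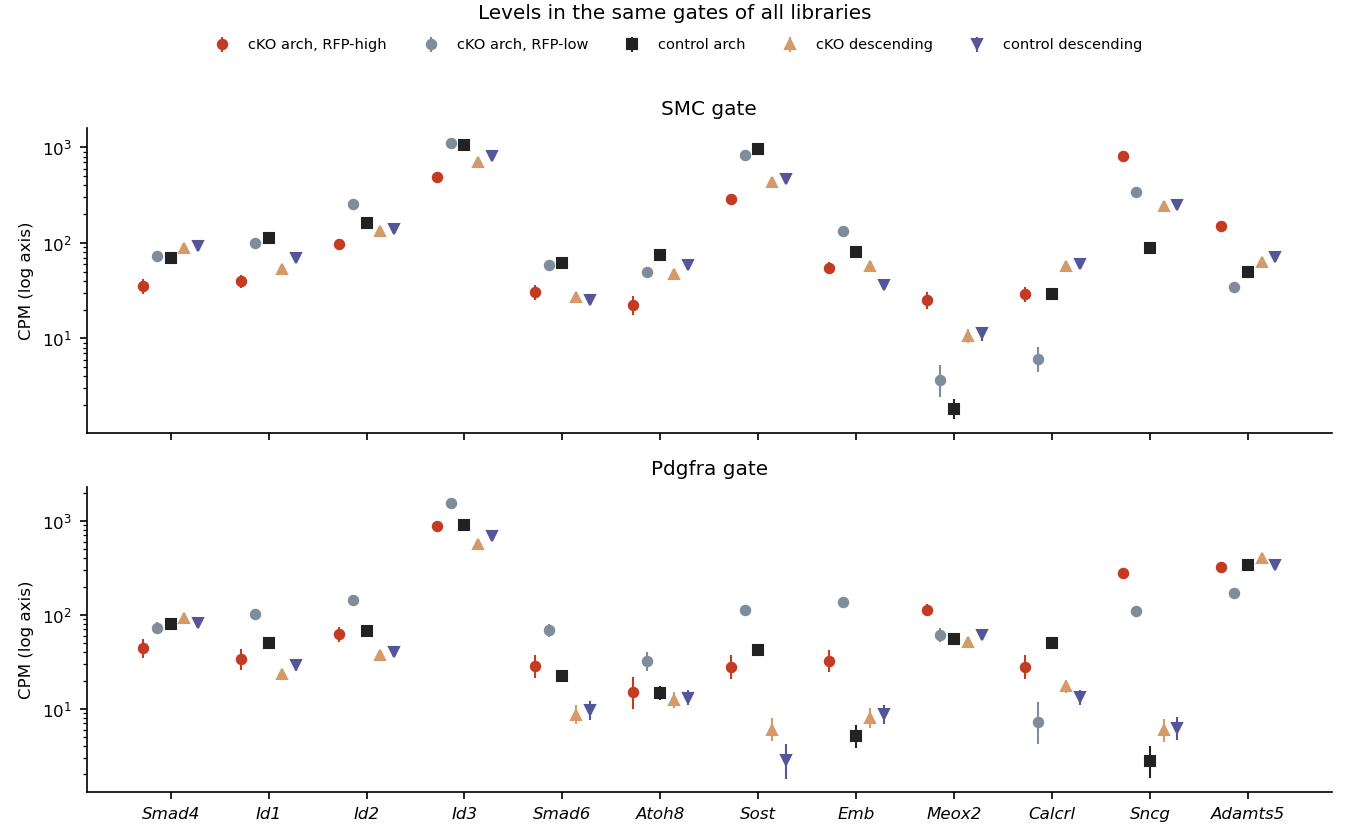
Level of 12 genes (y axis, CPM on a log axis) in the RFP-high and RFP-low arms of the cKO arch and in all cells of the same gate of the other libraries, for the smooth muscle gate (top) and the Pdgfra gate (bottom), with exact 95% Poisson intervals for counting error. Smad4 of the RFP-high arm is the lowest of the 5 in both gates, at 35.0 and 44.3 CPM.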

How the data were processed

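Single-cell UMI counts from the cKO arch library were compared between RFP-high and RFP-low cells. The count matrices were deposited by the authors as Cell Ranger output of the 10x 5′ v2 kit, per the labels' protocols. Cell Ranger is given as 6.1.1 in the submitters' processing notes and as 6.1.2 per the file headers, with the mm10 genome, and the annotation release was not stated in the sources used here. The cKO arch file lists 28693 features and the others 32285, and library totals ran from 49407811 to 98866674 UMIs. Groups came from the sample labels.

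UMIs were summed over the cells of an arm and divided by the arm's total without RFP (CPM), and log2 ratios used a prior of 0.5 UMI. Intervals are exact at 95% (conditional, Poisson or Clopper-Pearson) and cover counting error only, at 1866173 to 7700118 UMIs per arm. Ratios with all cells are given for genes with 50 or more UMIs over both arms. Single-gene ratios under the alternatives had no such minimum, and some rest on a few UMIs. The summing and interval scripts were tested on simulated data. No doublet caller was run, and cells with Ptprc or Pecam1 were left out, with an alternative that also drops the 5% of cells with most UMIs. Other alternatives changed RFP boundaries, gates, filters, scaling, averaging and the prior.

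Members and gene lists were chosen with earlier results of these data known. Genes were named by a rule: in each gate the 12 highest and 12 lowest by the near end of the interval, with 20 CPM in an arm, leaving out the genes of the selection, predicted, mitochondrial, ribosomal, haemoglobin and immune receptor genes and genes under 0.2 of their level in Ptprc-positive or Pecam1-positive cells. To these were added the 10 per direction shared by the gates with the largest smallest difference, up to 4 members per list and gate, and all SMAD transducers and BMP targets. Other list members in the text were chosen after their values were seen. Values of some list members are not reported here, though list counts and medians include them. Python 3.11.15, numpy 2.4.6, scipy 1.17.1, pandas 2.3.3 and matplotlib 3.10.9 were used.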

Additional observations from a re-analysis of the deposited data

Results flagged for a closer look

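Results in which RFP-high cells differed by more than 1.5-fold in opposite directions in a pair of gates, with both counting intervals away from 0, are listed here as log2 ratios of RFP-high over RFP-low cells. None of these differences between gates was tested. Pi16, a marker of adventitial fibroblasts, was at 1.23 in the smooth muscle gate and 0.79 in the Spp1 gate but at -1.51 in the Pdgfra gate. Its smooth muscle gate levels, 14.6 against 6.23 CPM, lay below the 36.0 and 168 CPM of Ptprc-positive and Pecam1-positive cells. Sparcl1, a matricellular protein gene, was at -0.99 in the smooth muscle gate and at 0.69 and 0.85 in the Spp1 and Pdgfra gates. Tnnt2, cardiac troponin T, was at -0.69 in the smooth muscle gate and at 1.03 and 2.14 in the other two. Thbs1, thrombospondin 1, was at 1.68, -1.48 and -1.65 in the smooth muscle, Spp1 and Pdgfra gate.

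Between the smooth muscle and Pdgfra gates, Aspn was at 0.67 and -1.49, C4b at 1.85 and -1.08, Gpc3 at 1.67 and -1.01, and Tgfb3 at 0.78 and -1.03. Between the smooth muscle and Spp1 gates, Atf3 was at 0.95 and -1.17, Nr4a1 at 2.000 and -0.69, and Slc11a1 at 2.55 and -1.81. Between the Spp1 and Pdgfra gates, Cxcl5 was at -2.26 and 5.51, Cxcl9 at -2.42 and 1.76, Ndnf at 2.25 and -1.72, and Slc7a11 at -3.66 and 4.29. In the Pdgfra gate 1 cell held 93.5, 53.6 and 90.8% of the UMIs of Cxcl5, Cxcl9 and Slc7a11. Ndnf of the Spp1 gate was at -0.69 with RFP counted per 10000 UMIs and at -0.0026 with cells thinned to 3000 UMIs.

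Without the phagocyte-marker cells the Spp1 gate had Thbs1 at -0.64, Atf3 at -0.82, Nr4a1 at -0.28, Pi16 at 0.68, Sparcl1 at 1.18, Tnnt2 at 0.95, Cxcl9 at -2.51 and Ndnf at 2.14. Slc11a1, Slc7a11 and Cxcl5 then had under 50 UMIs in that gate and were not compared.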

How the results depend on the processing

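No paired analysis was possible because each group has 1 library, and leaving out a replicate could not be done for the same reason. All alternatives fixed at the outset were run, and leaving out the phagocyte-marker cells or the cell with most UMIs of a gene was chosen after seeing the data. Smad4 and the BMP target median were below 0 in all 3 gates under each of 17 alternatives. The minima of 200, 20 and 1 UMIs per gene could not move Smad4, since they change only which genes are tested. Smad4 ran from -1.19 to -0.60 in the smooth muscle gate, -0.98 to -0.60 in the Spp1 gate and -0.89 to -0.48 in the Pdgfra gate, and the BMP target median from -1.003 to -0.56, -0.98 to -0.46 and -1.20 to -0.76. RFP-high at 8 or more UMIs gave -0.60 for Smad4, -0.56 for the BMP median and 204 lower genes in the smooth muscle gate, and a BMP median of -0.46 in the Spp1 gate. Thinning to 3000 UMIs gave -0.71 for Smad4 in the smooth muscle gate, 278 higher and 210 lower genes in the Spp1 gate and 275 and 245 in the Pdgfra gate. Median-of-ratios scaling gave 317 higher genes in the Pdgfra gate. The mean of per-cell CPM gave a BMP median of -0.46 and 1027 higher genes in the Spp1 gate and 649 lower genes in the Pdgfra gate. A minimum of 200 UMIs per gene gave 184 higher and 129 lower genes in the smooth muscle gate, 150 and 114 in the Spp1 gate and 85 and 121 in the Pdgfra gate, with fewer genes tested. A minimum of 20 UMIs gave 978 and 575, 972 and 943, and 865 and 702, and a BMP median of -0.48 in the Spp1 gate. A minimum of 1 UMI gave 2878 and 1496, 2621 and 2953, and 2557 and 2715, and a BMP median of -0.46 in the Spp1 gate. The median of the other-cell markers (pericyte, Schwann, mesothelial, adipocyte, heart and red cell) is called the other-cell marker median here. RFP counted per 10000 UMIs turned the other-cell marker median to -0.66, Cnn1 to -0.22, Ndnf to -0.69 and Tagln to -0.20 in the Spp1 gate. RFP-low at under 3 UMIs turned Uchl1 to 0.18 in the Spp1 gate. Thinning each cell to 3000 UMIs turned Hmga1 to -0.16 and Rtp4 to -0.12 in the smooth muscle gate, and the other-cell marker median to -0.90, Acta2 to -0.092, Cnn1 to -0.18, Grem1 to 0.73, Ndnf to -0.0026, Saa3 to -1.42, Tagln to -0.34 and Timp1 to -0.0042 in the Spp1 gate, and the other-cell marker median to -0.12 in the Pdgfra gate. Stricter gates turned Sfrp4 to 0.053 in the smooth muscle gate, and Car3 to 0.082 in the Spp1 gate, and Car3 to 1.03, Dsp to 0.019, Igfbp2 to 0.027, Npy to 1.14 and Slc7a11 to -1.58 in the Pdgfra gate. A limit of 5% mitochondrial UMIs turned Car3 to 0.33 in the Pdgfra gate. Leaving out the 5% of cells with most UMIs turned Hist1h2ae to -0.20 and Slc7a11 to -0.23 in the Pdgfra gate. Leaving out cells with a UMI of Tyrobp or Cdh5 turned Arg1 to 0.012, Ccl2 to 0.33, Ccl6 to 0.069, Cd14 to 0.66, Clec4n to 0.26, Cxcl3 to 0.012, Il1b to 0.66, Ppbp to 0.057 and Tgfbi to 1.75 in the Spp1 gate. Leaving out the phagocyte-marker cells turned Ccl6 to 0.030, Clec4n to 0.33, Ppbp to 0.51 and Tgfbi to 1.79 in the Spp1 gate. Single-gene values had no minimum of UMIs under the alternatives, and some rest on a few. With all cells the RFP-high arm of the Spp1 gate held 3, 5 and 2 UMIs of Arg1, Cxcl3 and Clec4n. The turned values of these genes therefore show neither a direction nor level arms. Leaving out the cell with most UMIs of the gene turned Car3 to 0.17 and Grem1 to 0.010 in the Spp1 gate, and Car3 to 0.38, Cxcl9 to -0.17, Hist1h2ae to -0.37, Npy to 1.76 and Slc7a11 to -0.24 in the Pdgfra gate. A minimum of 1 UMI per gene turned the other-cell marker median to -0.87 in the Spp1 gate, and the other-cell marker median to -0.27 in the Pdgfra gate. A minimum of 200 UMIs per gene turned the other-cell marker median to -0.20 in the Spp1 gate, and the other-cell marker median to -0.11 in the Pdgfra gate. The cause of these shifts was not tested, apart from the change in how many genes are tested under another minimum. At 50 UMIs over both arms counting error alone is wide, so low genes limit these counts.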

Other observations

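Cell cycle genes had 1 higher and 0 lower of 8 in the smooth muscle gate, 0 higher and 5 lower of 10 in the Spp1 gate and 6 higher and 0 lower of 12 in the Pdgfra gate, with medians of 0.06, -0.55 and 0.51. The proliferation marker Mki67 was at -2.25 and 1.19 in the Spp1 and Pdgfra gate, with 70 and 63.8% of its UMIs in 1 cell, and the difference between gates was not tested. Here and below, 6.12, 7.28 and 5.86% of all genes were higher and 3.53, 5.56 and 4.59% lower in the smooth muscle, Spp1 and Pdgfra gate. Wnt genes and inhibitors had 3 higher and 3 lower of 12, 3 and 2 of 11, and 0 and 5 of 12, with medians of -0.04, 0.03 and -0.50. Genes of modulated smooth muscle had 3 higher and 5 lower of 18, 5 and 5 of 22, and 1 and 6 of 22. Ion channels and calcium handling genes had 3 higher and 1 lower of 26, 5 and 0 of 17, and 1 and 3 of 16. Genes of G protein signalling had 4 higher and 4 lower of 25, 6 and 2 of 18, and 2 and 3 of 18. None of 34 tested nuclear genes of oxidative phosphorylation, which feed the respiratory chain, was past the size in any gate, with medians of -0.05, 0.10 and 0.17 in the smooth muscle, Spp1 and Pdgfra gate. The PDGF axis had none past the size among 5, 5 and 4 tested. Heat shock genes had 2, 1 and 0 higher of 14 and 0 lower, with medians of 0.09, 0.28 and 0.07. Genes of heritable thoracic aortic disease had 2 higher and 2 lower of 21 in the smooth muscle gate, 5 and 1 of 21 in the Spp1 gate and 2 and 4 of 20 in the Pdgfra gate. Genes of p53 and cell cycle arrest had 3 of 15, 4 of 17 and 3 of 16 higher and 0, 1 and 1 lower, with medians of 0.23, 0.41 and 0.21. Lipid handling genes had 3 higher and 1 lower of 22 in the smooth muscle gate, 2 and 6 of 22 in the Spp1 gate and 2 and 1 of 20 in the Pdgfra gate. The Spp1 gate counts became 3 higher and 3 lower of 21 without the phagocyte-marker cells.

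With RFP called after thinning each cell to 3000 UMIs, at 5 or more UMIs for RFP-high and under 3 for RFP-low, 19.2% of RFP-high cells (16.1 to 22.5%) and 15.9% of RFP-low cells (13.7 to 18.4%) were in the Spp1 gate. RFP UMIs were also found outside the gates, where 21.7% of 406 cells had 16 or more, and in Pecam1-positive cells without Ptprc, where 19.2% of 416 had (15.6 to 23.4%).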
